A study of Mus musculus with 7 samples.

Results

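Expression of 8 genes of tissue-resident regulatory T (Treg) cells, Prdm1, Pparg, Hopx, Penk, Dgat2, Areg, Capg and Nrp1, was read in 7 RNA-seq libraries of mouse lung Treg cells. The genes were found by symbol, and all 8 were present among the 19736 symbols listed for each library. The 3 CCR6+ libraries came from cells that were CCR6+ and Foxp3EGFP+, and the 4 CCR6- libraries from cells that were CCR6- and Foxp3EGFP+. CCL20 signals through CCR6, a chemokine receptor, and EGFP reports the Treg transcription factor Foxp3. Every group carried the Il4raR576 allele, a variant of the alpha chain that binds IL-4, and no other Il4ra genotype was analysed here. The female mice, 5 to 7 weeks old, received 100 µg of ovalbumin by intraperitoneal injection and a boost after 2 weeks. They inhaled 1% ovalbumin for 30 min on each of 3 days from day 29 and were killed on day 32, and cells were sorted from total lung digests. The labels do not say whether libraries of a group came from separate or pooled mice. The p-values thus set group differences only against variation between libraries, which may be technical. The title of the series frames the comparison as a question about Treg cells that resemble TH17 helper cells.

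Treg cells that settle in tissues carry, beside Foxp3, a program of transcription factors and effector molecules that is less prominent in lymph node Treg cells. Prdm1 encodes Blimp-1, a repressor that drives effector differentiation; Pparg encodes a lipid-sensing nuclear receptor that marks visceral fat Treg cells; Hopx encodes a homeodomain protein without DNA binding of its own. Amphiregulin, from Areg, is a ligand of the EGF receptor that Treg cells release in injured lung and muscle, and Penk encodes the precursor of the enkephalin opioid peptides. Several of these genes also have strong expression outside T cells: alveolar macrophages use PPAR-gamma and the actin-capping protein of Capg, alveolar type 1 epithelium uses Hopx, and endothelium uses Nrp1.

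Values are normalised read counts, that is, reads per gene that the authors divided by 1 factor per library. Between 11607780 and 47261246 reads lay behind a library, and the smallest read number behind any value of the 8 genes was 128, for Dgat2 in CCR6+ replicate 2, where counting error alone is 8.84%. The sort was visible in Ccr6, at 7309, 2750 and 6406 in CCR6+ replicates 1 to 3, against 909, 851, 439 and 271 in CCR6- replicates 1 to 4. CCR6+ replicate 2 differed from the rest in depth, Foxp3 level and markers of other lung cells. It had the fewest reads, 2.16% of symbols at 0 against 6.89% to 29.7% elsewhere, and a Foxp3 level of 12206, against 19376 to 50875 elsewhere. Summed markers of alveolar macrophages and monocytes reached 131458 there, those of alveolar type 1 epithelium 8653 and those of endothelium 51593. In the other CCR6+ libraries these sums were 10740 to 56303, 431 to 811 and 6198 to 9395. In CCR6- libraries they were 1506 to 36650, 453 to 1124 and 5475 to 7245. No marker of these lists was at 0 in CCR6+ replicate 2. Differences of the 8 genes and medians of the related lists are therefore given with and without that library. Without it, log2 differences were still positive for 14 of 15 macrophage and monocyte markers (median 1.40) and 8 of 9 endothelial markers (1.83). The same held for 9 of 9 B cell markers (1.61) and 7 of 7 markers of eosinophils, mast cells and neutrophils (2.19). It held for 7 of 9 dendritic cell markers (0.83) and 10 of 12 of alveolar type 2 and airway epithelium (0.76). Signs were mixed for alveolar type 1 epithelium (4 of 6 positive, 0.058) and stroma (5 of 9, 0.53). They were also mixed for innate lymphoid, NK and gamma-delta T cells (5 of 10, 0.44). Summed dendritic cell markers were 3839 to 11321 in CCR6+ and 2372 to 3445 in CCR6- libraries. Leaving out that library thus did not remove higher marker values of several other cell types in CCR6+ libraries. For alveolar type 1 epithelium little difference remained. The part of other cells in any value was not tested. In bulk libraries, fewer cells of a type and less RNA per cell cannot be told apart.

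Prdm1, Hopx and Areg are shown with the 250 bases before their start sites, from the RefSeq promoter table on GRCm38.p6, the assembly that mm10 names. Areg and Prdm1 were chosen as genes whose groups separated without CCR6+ replicate 2, and Hopx because its reads join transcripts from separate start sites. Pparg also had separate start sites in that table, 3 of them, and its windows are not shown. The Prdm1 start in that table lies inside the annotated gene, downstream of its outermost start. Capitals mark matches, on either strand, to TATAAA, to the cAMP response element TGACGTCA or to the AP-1 motif TGANTCA; none of the matches shown overlap one another.
Areg, chr5:91139349-91139598, plus strand: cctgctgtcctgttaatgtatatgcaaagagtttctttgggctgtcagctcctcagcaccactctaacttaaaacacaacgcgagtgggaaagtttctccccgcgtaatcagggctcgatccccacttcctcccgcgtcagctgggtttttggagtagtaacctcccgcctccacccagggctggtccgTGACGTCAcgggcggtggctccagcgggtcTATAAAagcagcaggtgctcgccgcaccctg
Prdm1, chr10:44458749-44458998, minus strand: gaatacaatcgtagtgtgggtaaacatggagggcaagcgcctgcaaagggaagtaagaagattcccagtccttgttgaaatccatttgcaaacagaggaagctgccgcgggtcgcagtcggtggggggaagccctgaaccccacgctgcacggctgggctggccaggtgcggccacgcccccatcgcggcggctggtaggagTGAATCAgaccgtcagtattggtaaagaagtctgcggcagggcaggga
Hopx, upstream start, chr5:77115124-77115373, minus strand: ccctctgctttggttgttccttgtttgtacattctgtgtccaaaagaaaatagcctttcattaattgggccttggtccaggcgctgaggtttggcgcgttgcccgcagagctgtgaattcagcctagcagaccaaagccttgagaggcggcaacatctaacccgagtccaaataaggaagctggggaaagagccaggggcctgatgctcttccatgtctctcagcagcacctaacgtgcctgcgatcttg
Hopx, downstream start, chr5:77095268-77095517, minus strand: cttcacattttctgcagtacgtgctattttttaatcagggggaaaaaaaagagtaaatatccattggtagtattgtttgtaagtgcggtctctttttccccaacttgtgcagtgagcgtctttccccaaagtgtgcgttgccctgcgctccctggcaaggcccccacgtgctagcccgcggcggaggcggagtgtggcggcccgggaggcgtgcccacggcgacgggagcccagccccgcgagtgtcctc
The Areg window held TGACGTCA from position -61 and TATAAA from position -31, counted back from the base before the start site as -1. Of 32851 promoter windows of that length, 1.55% held TGACGTCA and 12.4% held TATAAA. The Prdm1 window held TGAATCA, a form of the AP-1 motif, from position -48, and 6.75% of all windows held TGANTCA. The Hopx windows held none of these letters. Promoter entries were found for 6 of the 8 genes, not for Penk or Dgat2.

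**Figure D1:**
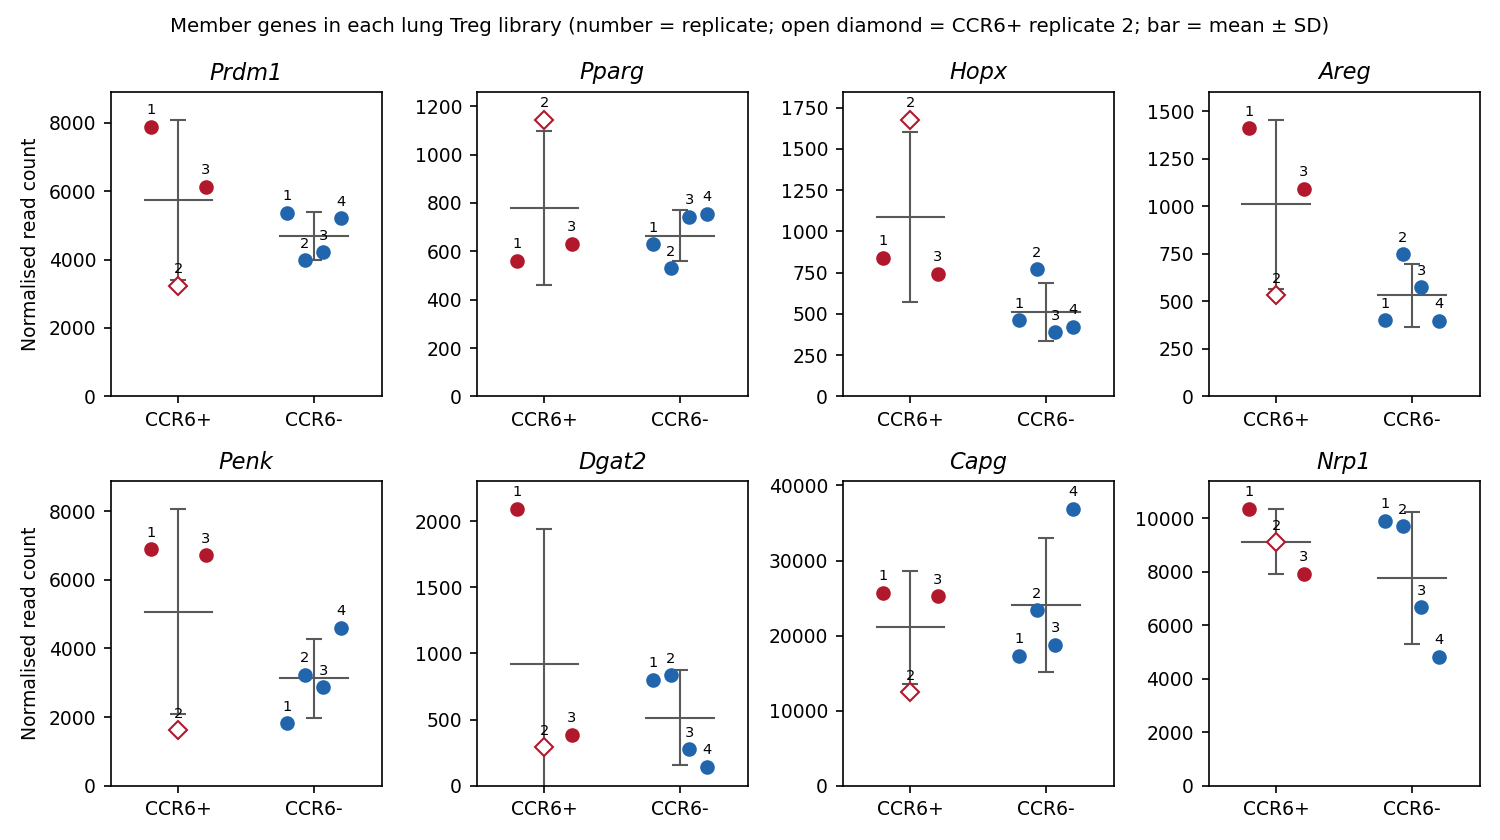
Normalised read counts (y axis, from 0) of the 8 genes in 3 CCR6+ and 4 CCR6- libraries; points are libraries numbered by replicate, the open diamond is CCR6+ replicate 2, and lines are mean ± SD, with the lower SD bar of Dgat2 ending at the axis. Hopx and Pparg were highest in CCR6+ replicate 2, while Prdm1, Penk and Capg were lowest there.

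Among the transcription factors, Prdm1 stood at 7872, 3228 and 6120 normalised counts in CCR6+ replicates 1 to 3, against 5371, 3985, 4216 and 5211 in CCR6- replicates 1 to 4. CCR6+ replicates 1 and 3 were the highest of all libraries and CCR6+ replicate 2 the lowest, so the groups overlapped. The mean was 5740 ± 2345 in CCR6+ and 4696 ± 697 in CCR6- libraries (SD, n = 3 and n = 4), a log2 difference of 0.21 (SE 0.33; limma, adjusted p = 0.769 over all genes tested). Without CCR6+ replicate 2 it was 0.58 (SE 0.22, adjusted p = 0.642) and the groups no longer overlapped, and without CCR6+ replicate 1 it was -0.07. Prdm1 lies on mm10 chromosome 10 from 44437177 to 44528501 and none of its exonic bases overlap another annotated gene.

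Hopx had the largest log2 difference of the 8 genes over all 7 libraries. It stood at 839, 1676 and 742 in CCR6+ replicates 1 to 3, against 462, 769, 389 and 422 in CCR6- replicates 1 to 4. CCR6+ replicate 2 had about as much as the other CCR6+ libraries together, and CCR6- replicate 2 lay just above CCR6+ replicate 3, so the groups overlapped. The log2 difference was 1.04 (SE 0.38, unadjusted p = 0.0323, limma adjusted p = 0.459), with a 95% interval from 0.12 to 1.97. Without CCR6+ replicate 2 it was 0.68 (SE 0.32, adjusted p = 0.711), and it stayed positive under each of the 22 alternative settings. The groups separated without CCR6- replicate 2, as did 11.2% of all genes upwards and 20.1% in either direction, and without CCR6+ replicate 3, as did 13.3% upwards and 22.4% in either direction. Hopx was 1 of 8 genes in each case, a share near that of all genes. Ager and Clic5, genes of alveolar type 1 epithelium, stood at 1995 and 4568 in CCR6+ replicate 2, and in the other CCR6+ libraries at 119 to 122 and 113 to 287. In CCR6- libraries Ager stood at 80.0 to 438 and Clic5 at 98.1 to 308, both highest in replicate 2. CCR6+ replicate 2 was highest for Hopx and for both markers, whereas CCR6+ replicate 1, next in order for Hopx, was among the lowest libraries for both; their part in the Hopx values was not tested. Hopx, on chromosome 5 from 77086988 to 77115121, shares 27.2% of its exonic bases with an antisense gene, and without known strand the reads of the pair cannot be told apart.

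Pparg varied little outside CCR6+ replicate 2. It stood at 560, 1144 and 631 in CCR6+ replicates 1 to 3, against 630, 529, 743 and 755 in CCR6- replicates 1 to 4. Leaving out CCR6+ replicate 2 reversed the sign of the log2 difference, which was 0.17 (SE 0.30, limma adjusted p = 0.789) with all libraries and -0.14 (SE 0.21, adjusted p = 0.901) without it, with a 95% interval from -0.68 to 0.39. CCR6+ replicate 2 also held the highest sum of macrophage and monocyte markers; Chil3 and Lyz2, the most abundant of them, stood there at 48181 and 63003, against 496 to 36360 and 539 to 12844 in the other 6 libraries. Marco, a scavenger receptor of alveolar macrophages, was at 54.6 there and at most 6.09 elsewhere. CCR6- replicate 4 had the smallest sum of these markers and, at 755, the Pparg value next below that of CCR6+ replicate 2; the part of these markers in Pparg was not tested. Pparg lies on chromosome 6 from 115360951 to 115490399.

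Areg and Penk encode the secreted products of the set. Areg stood at 1410, 532 and 1092 in CCR6+ replicates 1 to 3, against 402, 748, 575 and 399 in CCR6- replicates 1 to 4. CCR6+ replicates 1 and 3 were above every CCR6- library, and CCR6+ replicate 2 lay among the CCR6- libraries. Summed markers of eosinophils, mast cells and neutrophils stood at 887, 6615 and 722 in CCR6+ replicates 1 to 3, against 64.3 to 527 in CCR6- libraries. The part of these cells in Areg was not tested. The mean was 1011 ± 444 in CCR6+ and 531 ± 166 in CCR6- libraries (SD, n = 3 and n = 4), 1.90-fold, with a log2 difference of 0.87 (SE 0.41, limma adjusted p = 0.488). Without CCR6+ replicate 2 the means stood 2.36-fold apart and the log2 difference was 1.27 (SE 0.33, unadjusted p = 0.0094, adjusted p = 0.487), with a 95% interval from 0.46 to 2.09. Areg lies on chromosome 5 from 91139599 to 91148432 with 6 exon blocks, none of them shared with another gene.

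The summed level of pan T cell markers was 124388 in CCR6+ replicate 2, against 203418 to 288815 elsewhere. Set against that sum, a comparison added after the values were seen, Areg amounted to 6.15, 4.28 and 4.76 per 1000 in CCR6+ replicates 1 to 3, against 1.98, 3.29, 2.58 and 1.38 per 1000 in CCR6- replicates 1 to 4. On this scale the groups did not overlap for Areg, and they overlapped for the other 7 genes. Of all genes tested, 8.56% were higher in CCR6+ with no overlap on it, and 9.0% separated in either direction. Lck enters the sum and stood at 97712 in CCR6- replicate 4, against 44523 to 48334 in the other CCR6- libraries, which lowers all ratios of that library. With libraries scaled to equal sums of this list, the limma log2 difference of Areg was 1.19 (adjusted p = 0.633), where the median over all genes was 0.42.

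Penk stood at 6888, 1622 and 6721 in CCR6+ replicates 1 to 3, against 1818, 3234, 2865 and 4605 in CCR6- replicates 1 to 4. CCR6+ replicates 1 and 3 agreed closely and exceeded every CCR6- library, while CCR6+ replicate 2 was the lowest of all. The log2 difference was 0.51 (SE 0.61, limma adjusted p = 0.69). Without CCR6+ replicate 2 it was 1.20 (SE 0.38, unadjusted p = 0.022, adjusted p = 0.587), at 6804 normalised counts on average in CCR6+ against 3131 in CCR6- libraries. Without CCR6+ replicate 1 or 3 it was 0.15 or 0.17. Penk lies on chromosome 4 from 4133531 to 4138819 and shares 14.3% of its exonic bases with a transcript on the opposite strand.

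Dgat2, for the acyltransferase that completes triglycerides, was the most variable of the 8 genes. Its values were 2093, 291 and 386 in CCR6+ replicates 1 to 3, against 802, 837, 276 and 144 in CCR6- replicates 1 to 4. The highest library exceeded the lowest 14.5-fold, and the spread within each group reached 7.19-fold in CCR6+ and 5.81-fold in CCR6- cells. High and low libraries occurred in each group, and the log2 difference of 0.61 (SE 0.94, limma adjusted p = 0.759) depended on single libraries: it was -0.27 without CCR6+ replicate 1 and 0.11 without CCR6- replicate 4. With quantile normalization it was -0.28. It was 1.15 without CCR6+ replicate 2 (SE 1.02, adjusted p = 0.827). The pooled standard deviation within groups, 1.36 on the log2 scale, exceeded that of 76.7% of all genes tested, whose median was 0.42. Dgat2 lies on chromosome 7 from 99153658 to 99182719.

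Capg and Nrp1 encode a gelsolin-family protein that caps actin filaments and a co-receptor of semaphorins and VEGF that is enriched on Treg cells of thymic origin. Capg stood at 25719, 12434 and 25238 in CCR6+ replicates 1 to 3, against 17335, 23394, 18795 and 36876 in CCR6- replicates 1 to 4. CCR6- replicate 4 was highest and CCR6+ replicate 2 lowest, and CCR6+ replicates 1 and 3 lay above the other 3 CCR6- libraries. The log2 difference was -0.20 (SE 0.39, limma adjusted p = 0.811); it turned positive without CCR6+ replicate 2 (0.15), without CCR6- replicate 4 (0.03), with quantile normalization (0.0046) and with equal pan T cell sums (0.12), so no direction is given. CCR6+ replicate 2, the lowest library for Capg, had the highest macrophage marker sum and the lowest pan T cell marker sum; the part of either in Capg was not tested.

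Nrp1 stood at 10340, 9085 and 7926 in CCR6+ replicates 1 to 3, against 9891, 9698, 6663 and 4822 in CCR6- replicates 1 to 4. The CCR6+ values lay within 1.30-fold of each other, and the groups overlapped, with CCR6- replicates 3 and 4 lowest. The log2 difference was 0.28 (SE 0.30, limma adjusted p = 0.662) with all libraries and 0.28 (SE 0.36, adjusted p = 0.886) without CCR6+ replicate 2. Leaving out CCR6- replicate 4, the lowest library, gave 0.073. In CCR6+ replicate 2 Nrp1 lay between the other CCR6+ libraries, while Kdr, the VEGF receptor of endothelium, stood at 6845 in CCR6+ replicate 2 against 263 and 696 in the other CCR6+ libraries, with 50.1 to 183 in CCR6- libraries. Capg lies on chromosome 6 from 72544391 to 72562983 and Nrp1 on chromosome 8 from 128358604 to 128503363.

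**Figure D2:**
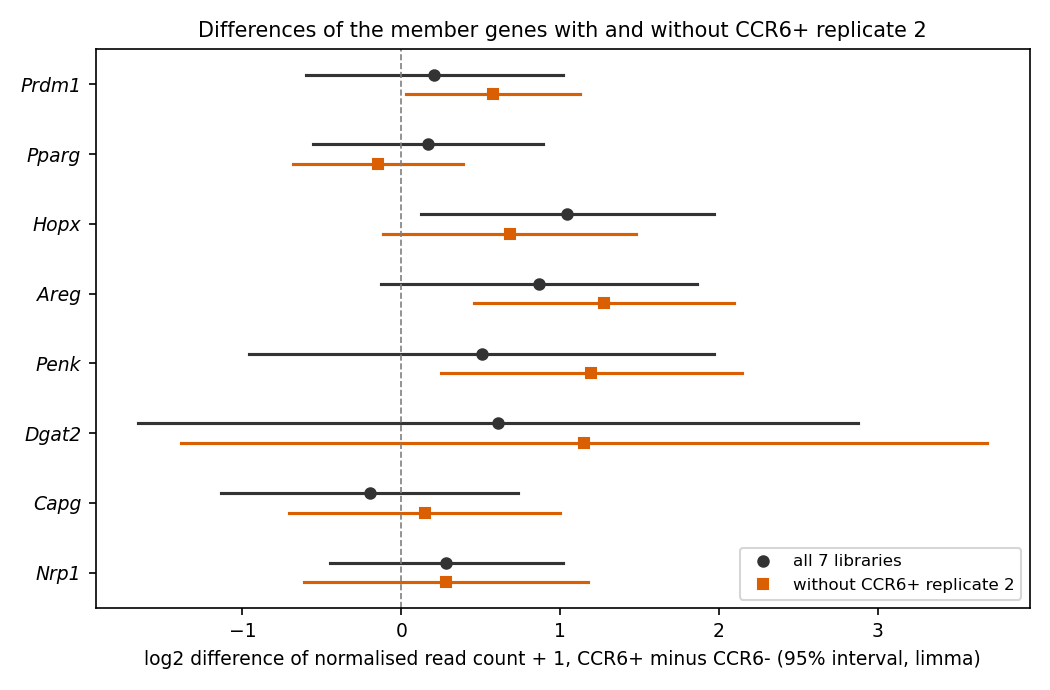
Log2 differences of normalised read count + 1, CCR6+ minus CCR6- (x axis), of the 8 genes, with 95% intervals from limma, for all 7 libraries (circles) and without CCR6+ replicate 2 (squares). The interval lies above 0 for Hopx with all libraries (0.12 to 1.97), and for Prdm1, Areg and Penk without CCR6+ replicate 2; none passed adjustment over all genes.

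None of the 8 genes passed the adjusted threshold of 0.05, in a fit where limma called 0 of 14582 genes (0.0%), with 1540 at an unadjusted p under 0.05. EdgeR on the recovered reads called 2 genes (0.0137%) and DESeq2 called 664 (4.82%), with 0 of the 8 among either. With libraries weighted by arrayWeights, limma called Areg (adjusted p = 0.0195), Penk (0.0246) and Hopx (0.0413), beside 17.0% of all genes. One of the 8, Hopx, had an unadjusted p under 0.05, beside 10.6% of all genes, or 8.22% counting higher ones only. The groups overlapped for all 8, while 13.5% of all genes separated in either direction and 7.96% upwards. Of the 8 log2 differences 7 were positive, where 56.9% of all genes were, and their median was 0.39 against 0.097 over all genes.

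Without CCR6+ replicate 2, Prdm1, Areg and Penk were higher in both remaining CCR6+ libraries than in all 4 CCR6- libraries, 3 of 8 genes beside 10.9% of the 13272 genes tested, or 20.3% in either direction. The same 3 had an unadjusted p under 0.05, beside 7.57% of all genes, or 4.78% counting higher ones only, and none an adjusted one (limma calls, 0.0%, with 1005 genes at an unadjusted p under 0.05). The median of the 8 log2 differences was then 0.63, against 0.0012 over all genes. DESeq2 without that library called Areg (adjusted p = 0.0218) and Penk (adjusted p = 0.0365) among 1.59% of genes with an adjusted p, and edgeR, with 0.0151% of genes called, called neither (adjusted p = 0.334 and 0.43). Only 2 CCR6+ libraries stand behind these values.

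**Figure D3:**
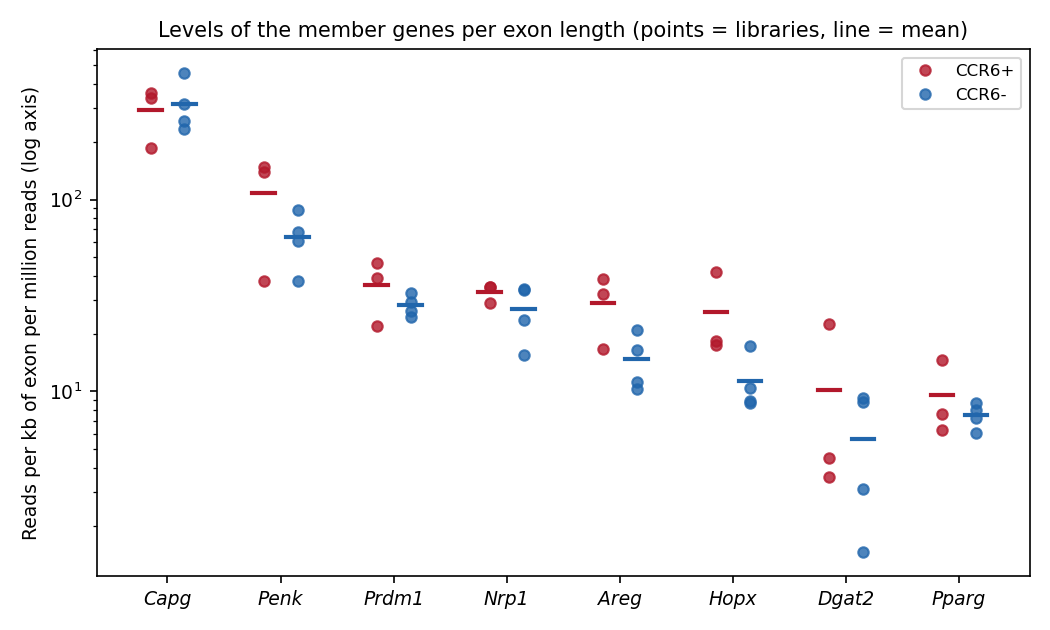
Reads per kb of exon, scaled to library reads (RPKM; y axis, log scale) of the 8 genes, ordered by the CCR6+ mean; points are libraries, CCR6+ left of CCR6- for each gene, and lines are means. Capg lay above the other 7 genes in every library, and Pparg and Dgat2 had the lowest means.

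Per exon length, with exons from GENCODE mouse release 21 on mm10, Capg had the highest level, at 293 ± 93.3 RPKM (reads per kb of exon, scaled to library reads; SD) in CCR6+ and 315 ± 99.8 in CCR6- libraries. It exceeded 99.5% of the genes tested in each group. Penk came next at 108 ± 61.2 in CCR6+ and 63.5 ± 20.7 in CCR6- libraries, above 97.6% and 94.9% of genes. Prdm1, Nrp1, Areg and Hopx followed with means from 25.9 to 36.0 in CCR6+ libraries, and neighbours in this order overlapped in range and swapped places between libraries. In CCR6- libraries Areg and Hopx were lower on this scale, at 14.7 ± 4.96 and 11.3 ± 4.06, and Areg exceeded Hopx in 4 of 4 of them. Dgat2 and Pparg closed the order in each group, at 10.2 ± 10.7 and 9.53 ± 4.50 in CCR6+ and 5.66 ± 3.97 and 7.51 ± 1.11 in CCR6- libraries. Their order differed between libraries.

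The library profile of each gene was set against 12367 other genes of sufficient level, as the root mean square difference between log2 profiles centred over the 7 libraries. Nearest to Prdm1 were Tnfrsf25, Jak3 and Ddit4, at 0.11, 0.11 and 0.12, where the median gene lay at 0.53. For Penk they were Ncmap, Ankrd55 and Tigit, an inhibitory receptor gene of Treg cells, at 0.30, 0.33 and 0.37, with a median of 0.86. The profile of Dgat2 lay nearest to Il1rl1, the gene of the IL-33 receptor ST2 that marks tissue Treg cells, at 0.46 against a median of 1.28. Il1rl1 stood at 20591, 4998 and 8170 in CCR6+ replicates 1 to 3, against 11445, 9784, 7324 and 2669 in CCR6- replicates 1 to 4. Hic1 and Rnf157 followed at 0.51 and 0.53. Areg lay nearest to Fgf16, Smco4 and Epcam, at 0.19, 0.28 and 0.29, with a median of 0.77. For Hopx the nearest were Nt5dc2, Slc35e4 and Tmem159 (0.12 to 0.17), for Pparg Hadhb and Trmt13 (0.078 and 0.10), for Capg Lbh, Pkp3 and Sit1 (0.084 to 0.11) and for Nrp1 Manea, Pgam1 and Sp1 (0.11 each). Among the 8, Prdm1 and Capg were the nearest pair, at 0.39. All these profiles share the same 7 libraries, CCR6+ replicate 2 among them.

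**Figure D4:**
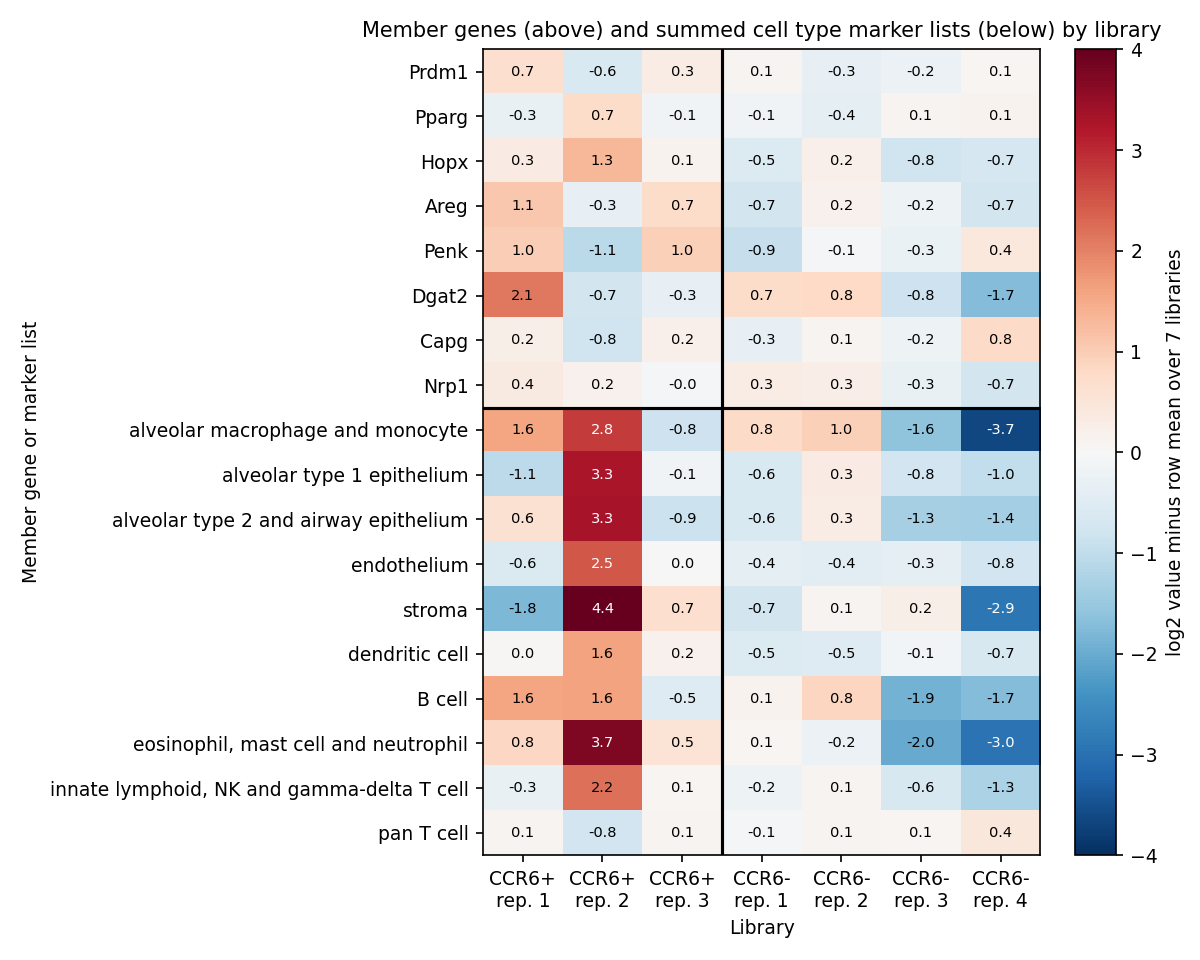
Log2 value minus the row mean over 7 libraries (colour and printed number) for the 8 genes above the line and for the sums of 10 cell type marker lists below it, with libraries as columns, CCR6+ left. The marker sums of other lung cells peak in CCR6+ replicate 2, where Hopx and Pparg are also highest and Prdm1, Penk and Capg lowest.

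Other genes of the tissue Treg program, 25 on a list, were counted beside the 8. All 25 were tested, 17 had positive and 8 negative log2 differences, and 0 passed. The median was 0.38 against 0.097 over all genes. Cd44, an adhesion receptor of activated T cells, stood at 19741, 12277 and 14347 in CCR6+ replicates 1 to 3, against 10889, 11453, 9795 and 5528 in CCR6- replicates 1 to 4. Cd44 and Ebi3, a subunit of the cytokine IL-35, were the 2 of 25 members with groups that did not overlap, beside 7.96% of all genes in that direction; the log2 difference of Ebi3 was 0.70, and -0.18 with quantile normalization. Without CCR6+ replicate 2 the signs were 23 positive and 2 negative, the median was 0.635 and 11 members separated upwards, beside 10.9% of all genes. Maf, a transcription factor gene linked to IL-10, then had a log2 difference of 0.85 (SE 0.19), against 0.58 (SE 0.27) with all libraries. The Treg identity list of 15 genes, with 0 passed, had 4 positive and 11 negative signs and a median of -0.40 with all libraries, but 11 positive and 4 negative signs and a median of 0.15 without CCR6+ replicate 2. In it Gpr83, a receptor gene of Treg cells, was lower in each CCR6+ library (limma adjusted p = 0.397). It stood at 1360 to 4435 in CCR6+ against 9679 to 25066 in CCR6- libraries. Entpd1, for the ectoenzyme CD39, was higher, at 2619 to 3315 in CCR6+ against 2068 to 2396 in CCR6- libraries. Of all genes, 5.53% separated downwards and 7.96% upwards.

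Genes around Blimp-1, its partners, antagonists and targets, did not share a direction. Of 12 tested, 6 were positive and 6 negative, 0 passed, and the median was 0.18, or -0.03 without CCR6+ replicate 2. Without that library 3 of the 12 separated upwards, beside 10.9% of all genes, and 5 downwards, beside 9.43%. Because the list joins partners with antagonists and targets, its median does not say whether these genes go with Prdm1. Ccr7 and Klf2, of lymph node homing and recirculation, were lower in each CCR6+ library, beside 5.53% of all genes that separated downwards. Ccr7 stood at 9468, 12750 and 17197 in CCR6+ replicates 1 to 3, against 26621, 25818, 58152 and 32217 in CCR6- replicates 1 to 4 (log2 difference -1.40, SE 0.37, limma adjusted p = 0.424). Bcl6, the repressor that opposes Blimp-1, had a log2 difference of 0.51 (SE 0.23, adjusted p = 0.482). Pax5, a B cell factor repressed by Blimp-1, was at 18.0 to 47.8 in CCR6+ and 0 to 13.3 in CCR6- libraries, and the B cell marker sum was 1485 to 6442 in CCR6+ against 577 to 3821 in CCR6- libraries. The part of B cells in the Pax5 values was not tested.

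For amphiregulin, the list of receptors that cue its release held 8 genes, 6 positive and 2 negative, with a median of 0.26 and 0 passed; leaving out CCR6+ replicate 2, the signs were 7 positive and 1 negative and the median 0.41. Il18r1, the IL-18 receptor chain, stood at 2447, 2068 and 2422 in CCR6+ replicates 1 to 3, against 1450, 1113, 938 and 687 in CCR6- replicates 1 to 4. The groups did not overlap with or without CCR6+ replicate 2, beside 7.96% and 10.9% of all genes upwards. The log2 difference was 1.19 (SE 0.28, limma adjusted p = 0.397) or 1.27 (SE 0.32). Among EGF family ligands, receptors and sheddases 8 of 10 tested were positive, with a median of 1.07, and 0 passed. Leaving out CCR6+ replicate 2, 6 of 9 were positive and the median was 0.46. Erbb4 was then no longer tested, as it passed the filter only through that library. Hbegf, another EGF receptor ligand, stood at 150, 469 and 74.1 in CCR6+ replicates 1 to 3, against 64.3, 15.7, 23.0 and 30.5 in CCR6- replicates 1 to 4, and Rhbdf2, which guides the sheddase of these ligands, at 983 to 1604 in CCR6+ against 488 to 895 in CCR6- libraries. Egfr itself ranged from 1.72 to 63.9 outside CCR6+ replicate 2, where it was 412. Repair and growth factor genes had 8 positive and 2 negative signs, 0 passed and the median was 1.61, with 4 of 10 higher without overlap beside 7.96% of all genes. Of 9 tested in the absence of CCR6+ replicate 2, the signs were 6 positive and 3 negative and the median 0.81. Wnt5a passed the filter only through that library. Pdgfb, a growth factor for stromal cells, stood at 73.0, 166 and 121 in CCR6+ replicates 1 to 3, against 30.3, 29.8, 32.2 and 41.3 in CCR6- replicates 1 to 4 (limma adjusted p = 0.302). Hgf and Igf1 were highest in CCR6+ replicate 2, at 757 and 1347, as were the stromal marker sums, at 33002 there against 466 and 2562 in the other CCR6+ libraries and 215 to 1905 in CCR6- libraries.

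For enkephalin, 7 of 11 genes of opioid peptides, processing and receptors were tested, 6 positive and 1 negative; the median was 1.63 and 0 passed. In the absence of CCR6+ replicate 2, 4 were tested, 2 positive and 2 negative, and the median was 0.30. Oprk1, Oprl1 and Pomc passed the filter only through that library, so these medians cover different genes. Oprk1 and Oprl1 were highest there, so their positive signs are no separate result. Pcsk1, the convertase that cuts proenkephalin into peptides, stood at 504, 400 and 495 in CCR6+ replicates 1 to 3, against 140, 136, 238 and 108 in CCR6- replicates 1 to 4. The groups did not overlap, as for 7.96% of all genes upwards, and Pcsk1 was named for its small p within the list. The log2 difference was 1.63 (SE 0.30, limma adjusted p = 0.302), or 1.74 (SE 0.34) without CCR6+ replicate 2. CCR6+ replicate 2 was thus near the other CCR6+ libraries for Pcsk1 and far below them for Penk. Cpe, the carboxypeptidase of the same pathway, had a log2 difference of 1.79 (SE 0.69), or 0.99 without that library, in which it was highest. The receptor genes Oprk1 and Oprl1 were listed at 0 in 3 libraries each and at 139 at most.

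Around Pparg, 14 of 17 tested genes of its partners and of lipid handling were positive, with a median of 0.68 (all libraries) and 0.42 leaving out CCR6+ replicate 2, and 0 passed. Cd36, a fatty acid transporter of macrophages and endothelium, was highest in CCR6+ replicate 2 at 23530, against 888 and 2066 in the other CCR6+ libraries and 125 to 765 in CCR6- libraries. Acsl1, an acyl-CoA synthetase, stood at 920 to 1160 in CCR6+ and 591 to 815 in CCR6- libraries (log2 difference 0.51, SE 0.18, limma adjusted p = 0.455). Triglyceride synthesis and breakdown, the pathway of Dgat2, had 12 positive and 3 negative signs of 15, 0 passed, and a median of 0.15 near that of all genes. In the absence of CCR6+ replicate 2 the signs were 8 positive and 7 negative and the median 0.048. Mgll, a monoglyceride lipase, stood at 204, 783 and 102 in CCR6+ replicates 1 to 3, against 10.2 to 77.1 in CCR6- libraries. The groups did not overlap, as for 7.96% of all genes upwards. Its log2 difference was 2.72 (limma adjusted p = 0.449), or 1.90 (adjusted p = 0.704) leaving out CCR6+ replicate 2. Neuropilin partners had 11 positive and 4 negative signs of 15, 0 passed and a median of 1.89; leaving out CCR6+ replicate 2 there were 10 positive and 5 negative signs and a median of 0.70. Plxnd1, a semaphorin receptor, stood at 1127, 887 and 1063 in CCR6+ replicates 1 to 3, against 637, 356, 507 and 202 in CCR6- replicates 1 to 4 (limma adjusted p = 0.44), and was not highest in CCR6+ replicate 2. Sema3f and Kdr were, at 2557 and 6845. Relatives of Capg in the gelsolin family and actin capping had 5 positive and 6 negative signs of 11, 0 passed and a median of -0.05, and 4 positive and 5 negative signs of 9 and a median of -0.007 in the absence of CCR6+ replicate 2. Capzb, a subunit of the capping protein, stood at 14836 to 19055 in CCR6+ and 17310 to 23490 in CCR6- libraries.

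**Figure D5:**
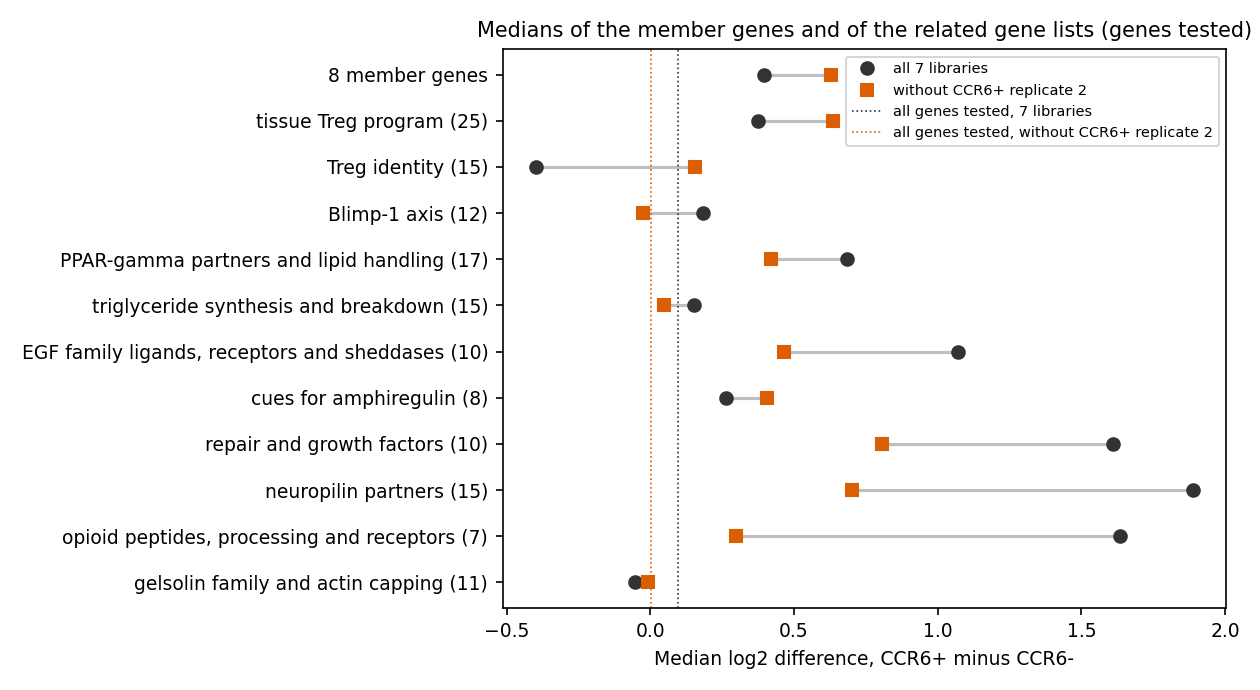
Median log2 difference, CCR6+ minus CCR6- (x axis), of the 8 genes and of 11 related gene lists, with the number of genes tested in brackets, for all 7 libraries (circles) and without CCR6+ replicate 2 (squares); dotted lines are the medians over all genes. The medians of the 8 genes (0.39 and 0.63) and of the tissue Treg program (0.38 and 0.635) moved up without that library, whereas those of neuropilin partners (1.89 and 0.70) and growth factors (1.61 and 0.81) moved down.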

How the data were processed

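RNA was read in 7 libraries, 3 CCR6+ and 4 CCR6-. The deposited signal of a gene is its number of reads after division by 1 factor per library, done by the authors; this was read from the values, which are multiples of a step within 0.001 reads in 100% of cases. Beside mm10, DESeq2 1.6.3, HTSeq 0.6.1p1 and STAR 2.5.1b stand in the submitters' processing notes, with no role or order. Sources used here do not give the annotation, filters or strand setting. Per the labels' protocols, cDNA came from SMART-Seq v4.

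The fit held the 14582 genes that reached 10 in 3 or more libraries, all 8 members among them. Some low genes of the lists reached this only through CCR6+ replicate 2, so lists without that library can hold fewer genes. It used limma 3.58.1 in R 4.3.3 on values raised by a pseudocount of 1 and put on the log2 scale, with two-sided tests and Benjamini-Hochberg adjustment over these genes at 0.05; fold changes on this scale understate those of low genes. EdgeR 4.0.16 and DESeq2 1.42.0 ran on the recovered reads as alternatives, with other pseudocounts, filters, scalings, weights, a replicate block and libraries left out; the scripts were tested on simulated counts. Levels per kb used exon unions of GENCODE mouse release 21, found for 97.0% of the genes kept.

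The members and lists were chosen with earlier results of these data known, and the scaling to pan T cell sums after the values were seen. Named genes are the members, up to 4 genes of smallest p per program list, the most abundant markers and the 3 nearest profiles per member among genes with a mean of at least 50; Egfr, Marco and Il10 were named after their values were seen. One item under this rule is not reported here. Replicate numbers share no stated origin, and same-numbered libraries did not deviate together in every pair. No pair of libraries of the same group agreed within read sampling noise, and pairs across groups were not compared.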

Additional observations from a re-analysis of the deposited data

Results flagged for a closer look

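Among 94 sets of 4 CCR6- values, from the 8 genes, list sums, named genes, depth and the share of symbols at 0, a library stood far from the other 3 in 5, where chance gives about 5% of such sets. None of the 8 genes was among them. In CCR6- replicate 4, Gpr83 stood at 25066, against 9679 to 11898 in CCR6- replicates 1 to 3, and the T cell kinase gene Lck at 97712, against 44523 to 48334. In CCR6- replicate 2, Ager, of alveolar type 1 epithelium, stood at 438, against 80.0 to 127; Hopx was also highest of the CCR6- libraries there, at 769. In CCR6- replicate 3, the opioid receptor gene Oprl1 stood at 17.5, against 0.946 at most, and the gelsolin-family gene Avil at 12.0, against 2.03 at most. With 3 libraries, the CCR6+ group was not examined in this way.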

How the results depend on the processing

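Over 22 alternatives, 159 of 176 log2 differences of the 8 genes kept their direction and 5 passed the threshold. Areg (0.48 to 1.27), Penk (0.15 to 1.43) and Hopx (0.63 to 1.36) stayed positive in every alternative. The 5 were Areg, Penk and Hopx with arrayWeights (1.13, 1.43 and 0.73), where 3 members and 2486 genes were called and the estimation of weights stopped before its tolerance, and Areg and Penk with DESeq2 without CCR6+ replicate 2 (1.25 and 1.14), where 2 members and 182 genes were called. Against 0 genes in the fit of the report, DESeq2 called 664, limma with trend and robust moderation 10, edgeR 2 (also without CCR6+ replicate 2), restriction to genes averaging 100 or more and a pseudocount of 8 each 2, and TMM scaling and a pseudocount of 0.5 each 1. Each library left out in turn gave 0 calls; the number of the 8 genes without overlap then ranged from 0 to 3 (3 without CCR6+ replicate 2, and 1, Hopx, without CCR6+ replicate 3 or CCR6- replicate 2, beside 20.3%, 22.4% and 20.1% of all genes in either direction), and log2 differences ranged from -0.0672 to 0.58 for Prdm1, -0.14 to 0.37 for Pparg, -0.27 to 1.15 for Dgat2, -0.38 to 0.15 for Capg and 0.073 to 0.42 for Nrp1. Reversed were Pparg with arrayWeights (-0.0793), and with edgeR (-0.16) and DESeq2 (-0.14) without CCR6+ replicate 2; Dgat2 with arrayWeights (-0.25) and quantile normalization (-0.28); Nrp1 with arrayWeights (-0.0137); and Capg with arrayWeights (0.38), quantile normalization (0.0046), equal pan T cell sums (0.12), and DESeq2 (0.097) and edgeR (0.077) without CCR6+ replicate 2. Ebi3 (-0.18) and Oprk1 (-0.0158) reversed with quantile normalization and Capzb (0.0416) with equal pan T cell sums. The cause was not tested. With the replicate number as a block, 0 genes were called, Capg was 0.0275 and Hopx 0.97 (limma adjusted p = 0.741). Correlations of deviations of same-numbered libraries were -0.13, -0.11 and 0.34. Those of different-numbered libraries ranged from -0.76 to 0.69, so these values cannot decide whether the numbers pair the libraries. The median over all genes was 0.097, -0.08 with quantile normalization and 0.42 with equal pan T cell sums. CCR6+ replicate 2 was not the only library apart. CCR6- replicate 4 had the most reads (47261246) and the largest share of symbols at 0 (29.7%). It was the lowest library for Areg, Dgat2 and Nrp1 and the highest for Capg. With 3 against 4 libraries, differences the size of those of Prdm1, Pparg, Penk, Dgat2, Capg and Nrp1 were within the spread between libraries. For Penk and Dgat2 they were 0.51 and 0.61, against pooled standard deviations within groups of 0.87 and 1.36 on the log2 scale.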

Other observations

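Epcam, on the list of airway epithelium, had one of the 3 profiles nearest to Areg. It stood at 1919, 1094 and 1258 in CCR6+ replicates 1 to 3, against 595, 796, 720 and 627 in CCR6- replicates 1 to 4. Its highest value was in CCR6+ replicate 1, whereas Sftpc, a surfactant gene of alveolar type 2 epithelium on the same list, stood at 1173, 40101 and 1205 in CCR6+ replicates 1 to 3, against 1493, 3909, 477 and 1241 in CCR6- replicates 1 to 4. Il10, on the lists of the tissue Treg program and of the Blimp-1 axis, stood at 632, 937 and 1286 in CCR6+ replicates 1 to 3, against 313, 313, 1010 and 621 in CCR6- replicates 1 to 4. Il10 was named after its values were seen.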
